A study of Mus musculus with 30 samples.

Results

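Tarm1 and Spint1 are 2 of the 34406 genes listed for mouse granulocyte-macrophage progenitors (GMP), and they were selected on their TPM values in GMP at 0, 6 and 10 h, low before and induced within 10 h of exposure to RG3039. Those values chose the genes, so their changes in GMP are given as a description without a test. Tarm1 fits the wording "nearly silent" only loosely, since it was measured in every untreated GMP sample at 2.25 to 3.13 TPM, while Spint1 lay below 0.1 TPM in all 3. TPM is a transcript abundance scaled by length that adds up to the same total in each sample.

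RG3039 is a small-molecule inhibitor of Dcps, which breaks down the free caps that remain once an mRNA has been degraded. The time course held normal bone marrow GMP and acute myeloid leukemia cells with the CALM/AF10 fusion, each at 0 h, before treatment, and at 6 h and 10 h after RG3039 was added, at 1 µM per the names of the deposited tables. The second data set held 4 leukemia lines named by their fusions, MLL/AF9 lines 2 and 1 and CALM/AF10 lines 2 and 1. One treatment protocol, naming RG3039 and all 3 times, is attached to every sample, but the labels give the lines no time, so whether the lines were treated is not settled. All 10 groups had 3 samples, all mice were C57BL/6, and no group carries a gene deletion in its labels. No sample without RG3039 at 6 or 10 h was analysed here, so time in culture and RG3039 cannot be told apart. Whether the 3 samples of each group came from separate cultures or animals is not given in the labels, so p-values measure the spread between these samples, which may be technical. The time-course depth is unknown and the lines held 8739673 to 25194822 estimated reads per sample. GMP carried the labelled identity in their markers: Mpo, the myeloperoxidase of primary granules, had 7877 ± 182 TPM and Elane, neutrophil elastase, 6761 ± 496 TPM in untreated GMP (SD, n = 3). In the CALM/AF10 time-course cells Mpo had 15.3 TPM at 0 h, against 2049 TPM in CALM/AF10 line 2 and 1919 TPM in CALM/AF10 line 1. The time-course cells and the 2 lines of the same fusion thus stood apart in Mpo, and how they are related is not given in the labels. In the summed level of 12 markers of the progenitor state, Mpo among them, the untreated time-course cells overlapped each line. The sums were 6828 to 7332 TPM in those cells, 7312 to 7700 TPM in line 2 and 6942 to 7150 TPM in line 1. In bulk RNA, fewer cells of a type and less RNA per cell cannot be told apart.

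Tarm1, the T cell-interacting activating receptor on myeloid cells, is an immunoglobulin-like receptor of the leukocyte receptor complex. It has no signalling motif of its own and pairs with Fcer1g, the Fc receptor gamma chain, whose tyrosine-based activation motif (ITAM) recruits the kinase Syk. In mice it is known from neutrophils, macrophages and dendritic cells. Spint1, also called HAI-1, is a membrane-anchored Kunitz-type inhibitor of serine proteases. It is best known from epithelia and placenta, where it holds in check matriptase (St14), hepsin (Hpn) and the activator of hepatocyte growth factor (Hgfac).

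Tarm1 (ENSMUSG00000053338) lies on the minus strand of mouse chromosome 7 at 3486500 to 3502624 of GRCm38, and Spint1 (ENSMUSG00000027315) on the plus strand of chromosome 2 at 119237362 to 119249527. The 250 bases before their RefSeq starts (build GRCm38.p6) are shown because the genes were induced together and their promoters are built differently. Both are printed 5′ to 3′ on the strand of the gene, and capitals mark matches to TATAAA and GAGGAA on either strand.

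Tarm1, chr7:3502625-3502874, minus strand: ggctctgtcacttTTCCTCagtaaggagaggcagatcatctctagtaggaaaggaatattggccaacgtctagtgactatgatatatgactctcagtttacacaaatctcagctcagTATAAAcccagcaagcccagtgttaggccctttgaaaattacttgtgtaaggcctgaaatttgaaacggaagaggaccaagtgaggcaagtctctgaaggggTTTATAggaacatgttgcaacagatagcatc
Spint1, chr2:119237110-119237359, plus strand: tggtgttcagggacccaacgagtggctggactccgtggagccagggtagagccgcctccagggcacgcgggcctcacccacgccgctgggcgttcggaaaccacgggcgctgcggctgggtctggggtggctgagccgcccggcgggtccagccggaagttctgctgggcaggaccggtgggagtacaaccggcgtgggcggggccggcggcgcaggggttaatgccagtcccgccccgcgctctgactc

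The Tarm1 window was 43.2% G and C and the Spint1 window 72.8%, against a median of 52.4% over 32851 mouse promoters of this length. The Tarm1 window held TATAAA, the letters of the TATA box, 133 bases before the gene on its own strand. At 31 bases before the gene the match lay on the opposite strand. On either strand, 12.4% of all promoters held TATAAA at least once. The Tarm1 window also held GAGGAA, a core bound by PU.1, at base -237 on the opposite strand, which 23.3% of promoters hold on either strand. The Spint1 window held neither, and of the 10 motifs searched it matched only the ETS core GGAA, at -155 and -96, which overlaps the PU.1 core and stands in 93.4% of promoters. The Tarm1 window matched the ETS core 5 times. Neither window held the C/EBP motif TTGCNNAA, the AP-1 motif TGANTCA, the CRE TGACGTCA, the E-box CACGTG, the RUNX motif TGTGGT, the interferon-stimulated response element or the STAT motif TTCNNNGAA, which 1.55% (CRE) to 14.0% (RUNX) of promoters hold. A match is a description of letters, and its absence says nothing of a factor.

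In GMP, Tarm1 rose early and then eased, while Spint1 rose at both steps. Tarm1 had 2.25, 2.42 and 3.13 TPM in the 3 GMP samples at 0 h, 135, 134 and 138 TPM at 6 h, and 110.0, 112 and 103 TPM at 10 h. The 3 times did not overlap, and the 6 h samples were the highest. For 10 h against 6 h in GMP, the share of all genes that part in this way was not counted, here or below. Mean TPM was 52.2 times that at 0 h after 6 h and 41.8 times after 10 h, and the 10 h mean was 0.801 of the 6 h mean. On the log2(TPM + 1) scale, which understates changes of low genes, the differences were 5.25 ± 0.09 (SE) for 6 h over 0 h, 4.94 ± 0.09 for 10 h over 0 h and -0.32 ± 0.09 for 10 h over 6 h. Of the 14246 GMP genes with 1 TPM or more in at least 3 samples, Tarm1 had the largest log2 difference at 6 h and the second largest at 10 h. Of these genes 44.0% were called at 6 h and 45.1% at 10 h (limma, Benjamini-Hochberg adjusted p under 0.05). Every sample lay above every 0 h sample for 27.5% of genes at 6 h and 28.2% at 10 h. Every sample lay below them for 24.4% at 6 h and 28.4% at 10 h, from which nothing is read about genes chosen on the same values. In its level it stood at place 10737 from the top among genes at 0 h and at place 673 at 6 h.

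Spint1 had 0.0660, 0.0542 and 0.0385 TPM in untreated GMP, 16.9, 14.6 and 16.2 TPM at 6 h, and 29.4, 25.8 and 29.3 TPM at 10 h. No sample of one time reached the values of another, and here the 10 h samples were the highest. Again no share of all genes was counted for 10 h against 6 h. The mean at 10 h was 533 times that at 0 h, a ratio that rests on a starting level so low that it has little precision, and 1.78 times that at 6 h. The log2(TPM + 1) differences were 4.00 ± 0.09 for 6 h over 0 h, 4.79 ± 0.09 for 10 h over 0 h and 0.79 ± 0.09 for 10 h over 6 h. Spint1 ranked 10th among GMP genes by its rise at 6 h and 3rd at 10 h. Means under 0.1 TPM at 0 h and of 10 TPM or more at 10 h were found for 3 genes, Spint1, the endothelial lipase gene Lipg (0.0768 TPM at 0 h, 6.91 TPM at 6 h and 14.2 TPM at 10 h) and the predicted gene Gm42429.

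**Figure D1:**
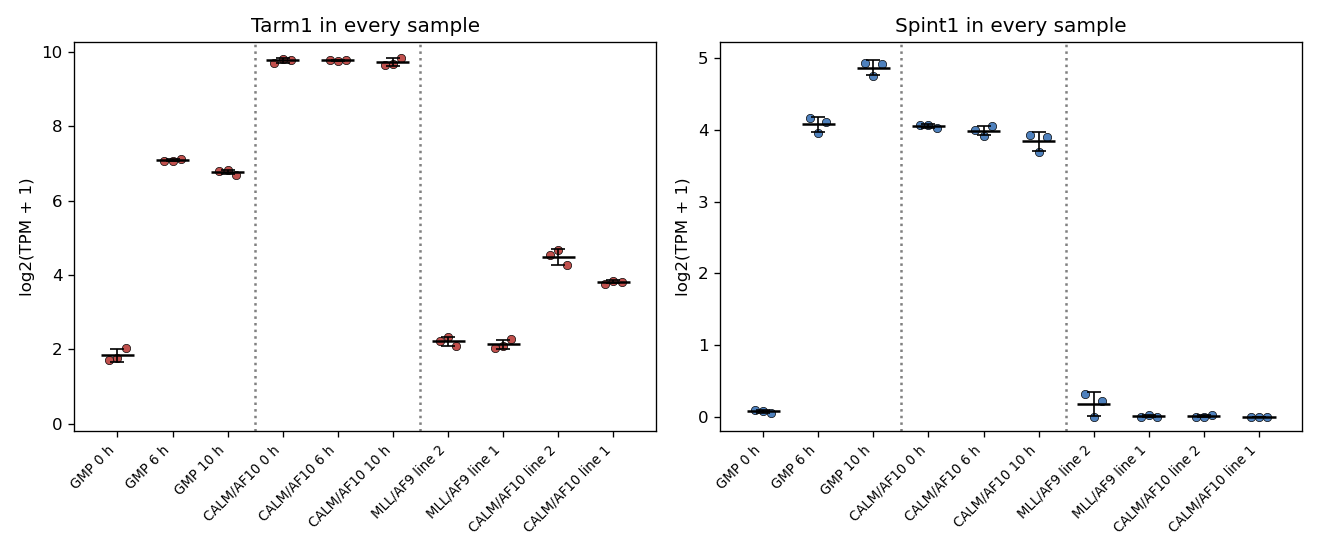
Tarm1 (left) and Spint1 (right) in all 30 samples, as log2(TPM + 1) on the vertical axis, for GMP and CALM/AF10 cells at 0, 6 and 10 h of RG3039 and for the 4 lines; points are samples, the bar is the mean and the whiskers 1 SD (n = 3). Tarm1 in GMP moved toward the CALM/AF10 cells without reaching them, while Spint1 at 10 h lay above them, and the lines of both fusions were low in Spint1. The dotted lines part tables that were made separately.

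The leukemia cells of the time course carried both transcripts before treatment. Tarm1 had 840, 908 and 884 TPM in untreated CALM/AF10 cells, place 163 from the top among the 12373 genes at 1 TPM or more there. At 6 h it had 876, 875 and 883 TPM and at 10 h 811, 818 and 924 TPM, and all 3 times overlapped. Of the 12815 CALM/AF10 genes tested, 12.6% were called at 6 h (5.44% higher and 7.14% lower), 19.2% at 10 h (10.5% higher and 8.64% lower) and 2.93% between 10 h and 6 h (2.18% higher and 0.749% lower). The 376 genes behind that last share became 64 to 263 with 1 sample left out and 140 with only those 2 groups fitted. Tarm1 was called in none of these comparisons. Its log2 difference was 0.00 for 6 h over 0 h (95% interval -0.12 to 0.12, limma adjusted p = 0.990), -0.05 for 10 h over 0 h (-0.17 to 0.07, adjusted p = 0.605) and -0.05 for 10 h over 6 h (-0.17 to 0.07, adjusted p = 0.692). A rise of the size seen in GMP lies outside these intervals. Tarm1 started from a mean of 877 TPM here and of 2.60 TPM in GMP, so nothing is read from that.

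Spint1 had 15.8, 15.7 and 15.3 TPM in untreated CALM/AF10 cells, 15.0, 14.1 and 15.5 TPM at 6 h and 14.1, 11.9 and 14.0 TPM at 10 h. The 10 h samples all lay below the 0 h samples, as did 16.4% of the genes tested, and 19.9% lay above. The 6 h samples overlapped those at 0 h and at 10 h, while 19.6% of genes lay below and 14.0% above 0 h at 6 h, and 7.82% below and 16.5% above 6 h at 10 h. The log2 difference for 10 h over 0 h was -0.21 (95% interval -0.38 to -0.05) and missed the threshold over all genes (limma, adjusted p = 0.0668). For 6 h over 0 h it was -0.06 (-0.23 to 0.10, limma adjusted p = 0.636) and for 10 h over 6 h -0.15 (-0.31 to 0.01, adjusted p = 0.307). Set beside the leukemia level, the mean of Tarm1 in treated GMP, 136 ± 2.11 TPM at 6 h, stayed well under the 877 ± 34.4 TPM of untreated CALM/AF10 cells (SD, n = 3 each). Spint1 in GMP, at 15.9 ± 1.19 TPM at 6 h and 28.2 ± 2.05 TPM at 10 h, overlapped their 15.6 ± 0.286 TPM at 6 h and lay above it at 10 h. The tables of GMP and of CALM/AF10 cells list different genes and were made separately, so these levels were not tested against each other.

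In the 4 lines both genes were far lower than in the time-course leukemia cells. Tarm1 had 3.67, 4.03 and 3.24 TPM in MLL/AF9 line 2 and 3.12, 3.30 and 3.83 TPM in MLL/AF9 line 1. It had 22.3, 24.5 and 18.1 TPM in CALM/AF10 line 2 and 12.6, 13.4 and 13.2 TPM in CALM/AF10 line 1. Every MLL/AF9 sample lay under every CALM/AF10 sample, and the 2 MLL/AF9 lines overlapped each other. Each fusion is 2 lines here, and the share of all genes that part the fusions in this way was not counted. With the reads summed per line, so that 2 lines stood for each fusion, Tarm1 was lower in MLL/AF9 than in CALM/AF10 lines, with a log2 difference of -2.72 ± 0.45 (edgeR quasi-likelihood test, adjusted p = 0.0180), in a comparison that called 2.84% of 19032 genes, 1.05% higher and 1.79% lower. The markers of mature neutrophils moved with it: 10 of 12 were lower in the MLL/AF9 lines, and their summed level was 5456 to 8119 TPM in the MLL/AF9 samples, against 158650 to 172209 TPM in the CALM/AF10 samples. None of the 12 was at 0 in either fusion, and S100a8, a calcium-binding protein of neutrophils, had 3465 and 4376 TPM in MLL/AF9 lines 2 and 1, against 85302 and 86196 TPM in CALM/AF10 lines 2 and 1. The part of these cells in the Tarm1 result was not tested.

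Between the 2 CALM/AF10 lines, Tarm1 was higher in line 2 than in line 1 by 0.74 ± 0.14 on the log2 scale (edgeR, adjusted p = 0.000517), among the 32.0% of 17033 genes called (20.1% higher and 11.9% lower). The summed neutrophil markers of these lines overlapped, at 159896 to 172209 TPM in line 2 and 158650 to 168303 TPM in line 1. Between the MLL/AF9 lines, where 56.6% of genes were called (25.9% higher and 30.8% lower), the direction of Tarm1 depended on the scaling. After TMM scaling it was lower in line 2 than in line 1, at -0.41 ± 0.16 (edgeR, adjusted p = 0.0381), while its mean TPM was 3.65 ± 0.397 in line 2 and 3.41 ± 0.369 in line 1 with overlapping samples (SD, n = 3). That call was lost with DESeq2 size factors (-0.35, adjusted p = 0.0774), and without MLL/AF9 line 1 replicates 2 or 3 or MLL/AF9 line 2 replicates 1 or 3 (edgeR, adjusted p of up to 0.149).

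Spint1 was at the limit of detection in all 4 lines and was too low to be tested. It had 1, 0 and 4 estimated reads in the samples of MLL/AF9 line 2 and 0, 1 and 0 in those of line 1, 0, 0 and 1 in CALM/AF10 line 2 and 0 in all 3 samples of CALM/AF10 line 1. A count of 0 allows up to 3 reads among the 8739673 to 11819510 of a CALM/AF10 line 1 sample, a limit for counting error only. Between the same fusion in the 2 data sets, the log2(TPM + 1) of untreated CALM/AF10 time-course cells minus that of the CALM/AF10 lines was 5.58 for Tarm1 and 4.05 for Spint1, which ranked 16th and 55th of 11676 genes, while the median gene differed by -0.03. A difference of 4 or more was reached by 56 genes. Those tables came from separate processing, so no test was made. Neutrophil markers summed to 61744 to 64856 TPM in the untreated time-course cells, against 158650 to 172209 TPM in the CALM/AF10 lines, and their part in the gap was not tested.

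From the highest mean down, Tarm1 stood in the order CALM/AF10 cells at 6 h, 0 h and 10 h, GMP at 6 h, GMP at 10 h, CALM/AF10 line 2, CALM/AF10 line 1, MLL/AF9 line 2, MLL/AF9 line 1 and untreated GMP. The samples of the 3 CALM/AF10 times overlapped as neighbours in that order, and so did those of the last 3 groups with their neighbours. Spint1 stood in the order GMP at 10 h, GMP at 6 h, CALM/AF10 cells at 0, 6 and 10 h, MLL/AF9 line 2, untreated GMP, MLL/AF9 line 1, CALM/AF10 line 2 and CALM/AF10 line 1. From GMP at 6 h to CALM/AF10 cells at 10 h each group overlapped the next, MLL/AF9 line 2 overlapped untreated GMP, and the last 3 lines overlapped each other. The order runs across tables made separately.

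Some transcript forms of Tarm1 could be told apart. GENCODE M21 gives 3: Tarm1-201 lacks the 36-base exon 2 of the other 2 forms, Tarm1-202 ends in a separate last exon, and Tarm1-203 ends in a longer exon 6. Tarm1-201 took at most 0.0200% of the estimated Tarm1 reads in any MLL/AF9 sample, against 3.99, 11.8 and 2.30% in CALM/AF10 line 2 and 16.4, 10.3 and 9.25% in CALM/AF10 line 1. Tarm1-203 took 67.6 ± 5.19% and 59.8 ± 10.1% in MLL/AF9 lines 2 and 1, against 37.8 ± 4.69% and 42.6 ± 1.58% in CALM/AF10 lines 2 and 1 (SD, n = 3). Every MLL/AF9 sample thus lay above every CALM/AF10 sample in Tarm1-203, and how many transcripts of other genes part in this way was not counted. The shares rest on 48.8 to 169 estimated Tarm1 reads in MLL/AF9 samples and 190 to 852 in CALM/AF10 samples. With 2 lines per fusion these shares were not tested, and they depend on how the quantifier divides reads between forms that share most exons.

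**Figure D2:**
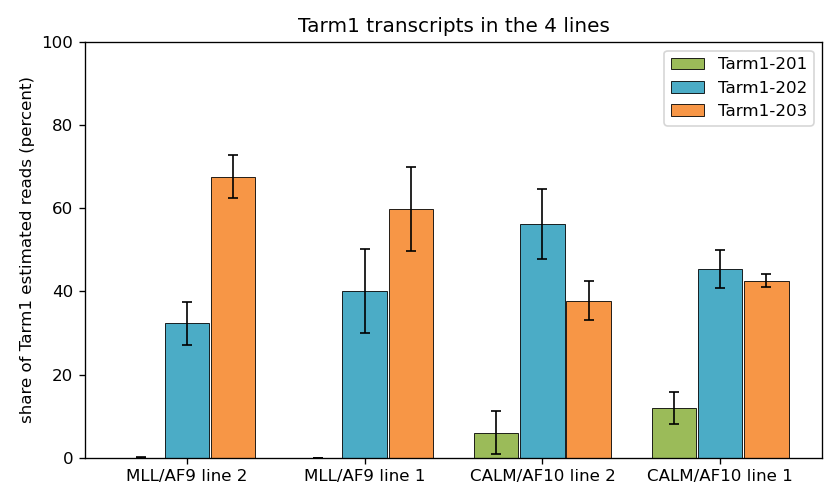
Share of the estimated Tarm1 reads, in percent on the vertical axis, that each of 3 transcript forms took in the 4 lines; bars are means of 3 samples and whiskers 1 SD. Tarm1-201 is visible only in the CALM/AF10 bars, with a mean of 6.03% in line 2, and Tarm1-203 is the tallest bar of both MLL/AF9 lines, at 67.6% in line 2 and 59.8% in line 1.

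The authors' deposited junction tables, which list only exon-exon junctions with a positive log2 ratio and a q-value under 0.05, hold 3 Tarm1 junctions, all in CALM/AF10 cells, and none of Spint1. The GMP tables, of 291 junctions at 6 h and 400 at 10 h, hold none of either gene. Untreated GMP had means of 2.60 TPM of Tarm1 and 0.0529 TPM of Spint1. That leaves few 0 h reads for a junction to be compared with, so nothing is read from this absence. At 10 h the authors' deposited table gives a junction from exon 4 to exon 6 that leaves out exon 5 (exons counted as in Tarm1-202), with a percent spliced in (PSI) of 10% at 10 h and 7% at 0 h, q = 3.53e-07. PSI is the share of the competing junction reads, and in the authors' deposited table this junction has a mean raw count of 325 at 10 h and 218 at 0 h. Exon 5 (chr7:3495926-3495991, GRCm38, minus strand) is coding and 66 bases long, a multiple of 3, so its loss keeps the reading frame. It is shown, 5′ to 3′ in lower case with nothing marked, because it is the stretch whose use shifted.

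Tarm1 exon 5: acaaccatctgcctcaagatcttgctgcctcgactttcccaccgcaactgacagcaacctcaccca

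The other Tarm1 junction at 10 h, from exon 6 to the last exon of Tarm1-202 (chr7:3487031-3489082), carries no gene name in the authors' deposited table. The authors' deposited table gives it a PSI of 83% at 10 h and 75% at 0 h, mean raw counts of 4448 at 10 h and 2603 at 0 h and a q-value listed as 0. Its competing junction there is 2 bases long, at 3489081 to 3489082, directly after exon 6 of Tarm1-202. Those bases lie inside the longer last exons of Tarm1-203 and Tarm1-201. How reads were counted for that entry is not given, so what the PSI is a share of was not settled further. At 6 h the authors' deposited table lists a junction from a point inside intron 1 to exon 2 (chr7:3498232-3500493), with a mean raw count of 15 at 6 h and 1 at 0 h and q = 0.00243 although both PSI values round to 0. The junction named there as its competitor starts 76439 bases upstream of the annotated start of Tarm1, at position 3579063 of chromosome 7. There GENCODE M21 has no exon and no gene, between Gm44921 and Gm25100. These shifts came without a called change in the level of Tarm1.

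Of the genes of the signalling path from Tarm1, the adaptor it pairs with rose with it in GMP. Fcer1g had 317, 306 and 234 TPM in GMP at 0 h, 416, 420 and 428 TPM at 6 h and 493, 480 and 456 TPM at 10 h, so the times did not overlap. Its log2 difference for 10 h over 0 h was 0.75 ± 0.10 (limma, adjusted p = 0.000307). Of the 18 ITAM path genes 17 were tested, and 7 were higher and 5 lower at 6 h, where 24.1% of all 14246 genes were called higher and 19.9% lower. At 10 h 7 were higher and 7 lower, where 23.7% and 21.5% of all genes were. Their median log2 difference at 10 h was 0.10, against -0.03 for all genes. The adaptor Lat2 rose by 1.39 ± 0.23 at 10 h (limma, adjusted p = 0.00102), and Hcst, the adaptor DAP10, was lower, at -0.77 ± 0.15 (adjusted p = 0.00247). Syk, the kinase that the Fcer1g motif recruits, was also lower, at -0.25 ± 0.06 at 6 h and -0.38 ± 0.06 at 10 h (limma, adjusted p = 0.00717 and 0.000691). Lower at 10 h too were the exchange factor Vav1 at -0.68 ± 0.07 (adjusted p = 3.95e-05), the lipid phosphatase Inpp5d (SHIP-1) at -0.48 ± 0.06 (adjusted p = 0.000213) and the adaptor Bcl10 at -0.72 ± 0.09 (adjusted p = 0.000138). Lat2 spread widely at 6 h, with 41.6, 25.9 and 19.9 TPM, against 10.9, 10.2 and 7.92 TPM at 0 h. In CALM/AF10 cells Fcer1g had 1307 TPM at 0 h and 1305 TPM at 10 h. Of 17 ITAM path genes tested 1 was higher and 3 lower at 10 h, where 10.5% and 8.64% of all genes were.

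Among the immunoglobulin-like receptors related to Tarm1, Lilrb4a, an inhibitory receptor with cytoplasmic inhibitory motifs, moved most. It had 15.3, 20.3 and 16.0 TPM in GMP at 0 h, 181, 164 and 170 TPM at 6 h and 128, 121 and 125 TPM at 10 h. As with Tarm1, the 6 h samples were the highest and the times did not overlap, and the log2 difference was 3.25 ± 0.09 at 6 h and 2.79 ± 0.09 at 10 h (limma, adjusted p = 3.42e-08 and 6.08e-08). In untreated CALM/AF10 cells Lilrb4a had 263, 279 and 279 TPM, above all GMP samples. Of the 13 receptors of this list 9 were in the table and 5 were tested, of which 4 were higher at 6 h and 3 at 10 h, where 24.1% and 23.7% of all genes were higher. In CALM/AF10 cells 1 of the 5 tested was higher and 1 lower at 10 h, where 10.5% and 8.64% of all genes were. At 10 h Pirb, the paired inhibitory receptor, was higher by 0.38 ± 0.11 (limma, adjusted p = 0.0217), a call that was lost without GMP 0 h sample c or GMP 10 h sample a or b, down to 0.27 and adjusted p of up to 0.0729. Pira2, an activating paired receptor and the third gene called, had 2.92 TPM at 10 h, against 1.39 TPM at 0 h. Pirb, Pira2 and Lilra6 are close copies whose reads the counting could have split, so their values are uncertain.

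Other activating receptors of myeloid cells did not share a direction. Of 13 tested, 5 were higher and 6 lower at 10 h, with a median log2 difference of -0.29, where 23.7% of all genes were higher and 21.5% lower. Fcgr3, a low-affinity IgG receptor that also pairs with Fcer1g, was lower, with a log2 difference of -1.46 ± 0.07 (limma, adjusted p = 3.76e-07). Clec4e (Mincle) was lower at -1.47 ± 0.15 (adjusted p = 5.39e-05) and Trem1 at -1.33 ± 0.17 (adjusted p = 0.000191). The beta-glucan receptor Clec7a was lower at -0.93 ± 0.18 (adjusted p = 0.00233). Among the higher ones Fcgr1, the high-affinity IgG receptor and another partner of Fcer1g, changed most, at 1.95 ± 0.14. It had 0.211 TPM at 0 h, 6.49 TPM at 6 h and 3.65 TPM at 10 h. Fcgr1 entered the fit only through its later samples, so no p-value is given and its call is a description. Clec4d was higher at 0.92 ± 0.16 (limma, adjusted p = 0.00135) and Clec4n (Dectin-2) at 0.92 ± 0.21 (adjusted p = 0.00684). With a pseudocount of 0.1 the differences were 3.77 for Fcgr1 and 1.86 for Clec4n.

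**Figure D3:**
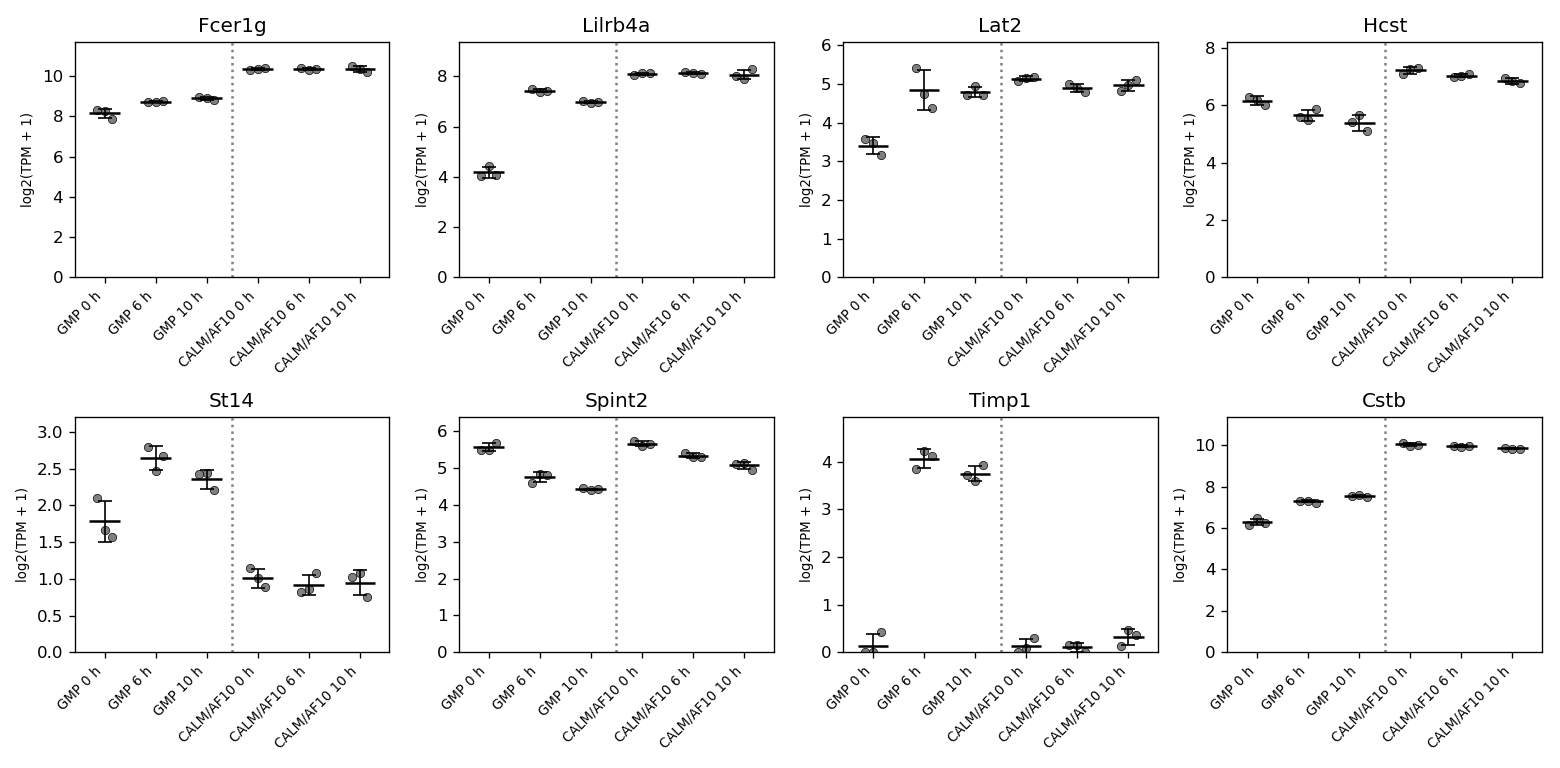
Genes linked to Tarm1 (top: Fcer1g, Lilrb4a, Lat2, Hcst) and to Spint1 (bottom: St14, Spint2, Timp1, Cstb) in GMP and CALM/AF10 cells at 0, 6 and 10 h, as log2(TPM + 1) on vertical axes of their own that start at 0; points are samples, bars means and whiskers 1 SD (n = 3). Lilrb4a and Timp1 show the steepest rises in GMP, Spint2 falls in both cell types, and in CALM/AF10 cells Timp1 stays at or below 0.382 TPM.

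The protease side of Spint1 was sparse. Of 12 proteases and growth factor genes on its path 5 were tested in GMP, and at 10 h 1 was higher and 1 lower, where 23.7% of all genes were higher and 21.5% lower. St14, the membrane protease matriptase, was named after its values were seen because it is the best-known target of Spint1. It had 3.29, 2.18 and 1.97 TPM in GMP at 0 h, 5.92, 4.52 and 5.35 TPM at 6 h and 4.36, 4.44 and 3.61 TPM at 10 h. Both later times lay above 0 h, by log2 differences of 0.86 ± 0.16 at 6 h (limma, adjusted p = 0.00220) and 0.58 ± 0.16 at 10 h (adjusted p = 0.0164). The 10 h call was lost without GMP 0 h sample b or c or GMP 10 h sample a or b, at adjusted p of up to 0.0551. The gene that was lower, Hgf, had 3.09 TPM at 10 h, against 4.37 TPM at 0 h (limma, adjusted p = 0.0457), and lost its call whichever of the 6 samples at 0 h and 10 h was left out, at adjusted p of 0.0522 to 0.149. In untreated CALM/AF10 cells St14 had 1.21, 1.01 and 0.843 TPM. Hpn, Hgfac, Prss8 and Tmprss2 had means under 1 TPM in GMP at every time.

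Of the 19 inhibitors of extracellular proteases 12 were tested in GMP, with 5 higher and 4 lower at 6 h and 4 higher and 5 lower at 10 h. Of all genes 24.1% were higher and 19.9% lower at 6 h, and 23.7% and 21.5% at 10 h. Timp1, an inhibitor of metalloproteases, showed the same start near 0 as Spint1: it had 0, 0 and 0.333 TPM in GMP at 0 h, 13.3, 17.8 and 16.4 TPM at 6 h and 12.2, 11.2 and 14.2 TPM at 10 h. Its log2 difference at 10 h was 3.61 ± 0.16, and 6.27 with a pseudocount of 0.1. Timp1 entered the fit only through its later samples, so no p-value is given and its place among the higher genes is a description. In CALM/AF10 cells, which carry Spint1, Timp1 stayed at or below 0.382 TPM in all 9 samples. Cstb, the cathepsin inhibitor stefin B, rose by 1.26 ± 0.07 at 10 h (limma, adjusted p = 2.12e-06). Spint2, the closest relative of Spint1 with an overlapping range of targets, went the other way. It had 44.2, 44.3 and 50.6 TPM in GMP at 0 h, 23.1, 27.8 and 27.2 TPM at 6 h and 20.8, 20.1 and 20.4 TPM at 10 h, a log2 difference of -1.14 ± 0.08 at 10 h (limma, adjusted p = 7.76e-06). In CALM/AF10 cells it was also lower at 10 h than at 0 h, with a log2 difference of -0.59 ± 0.06 (adjusted p = 0.000254), and it was 1 of 3 inhibitors lower among 13 tested there, where 8.64% of all genes were. In the MLL/AF9 lines it was lower than in the CALM/AF10 lines, at -3.14 ± 0.41 (edgeR, adjusted p = 0.00788). Serpine2, which blocks thrombin and plasminogen activators, was lower in GMP at 10 h, at -0.96 ± 0.12 (limma, adjusted p = 0.000176).

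Markers of cell identity shifted in GMP over the same hours, and at 10 h 23.7% of all genes were higher and 21.5% lower. Of 12 markers of the progenitor state 2 were higher and 9 lower at 10 h, and their summed level was 11167 to 11794 TPM at 10 h, against 21254 to 22168 TPM at 0 h. Irf8, a transcription factor of the monocyte branch, was lower, at -2.0 ± 0.08 (limma, adjusted p = 1.49e-07), and so was Mpo, at -1.27 ± 0.06 (adjusted p = 3.17e-07). Of 12 neutrophil markers 1 was higher and 7 lower, among them Retnlg at -2.95 ± 0.19 and the lactoferrin gene Ltf at -1.66 ± 0.16 (limma, adjusted p = 3.26e-06 and 4.57e-05). They had summed levels of 10420 to 10977 TPM at 10 h and 9048 to 11672 TPM at 0 h. Of 14 monocyte and macrophage markers 11 were tested, with 8 higher and 3 lower. Their summed level was 2360 to 2438 TPM at 10 h, against 3455 to 3689 TPM at 0 h. A mean under 1 TPM was found for 7 of the 14 at 0 h and 4 at 10 h, so some of the 11 entered the fit through later samples. Cd68, a lysosomal protein of macrophages, was higher by 0.67 ± 0.10 (limma, adjusted p = 0.000413), and the adhesion molecule gene Vcam1 was lower, at -2.02 ± 0.10 (adjusted p = 7.59e-07). Of the 12 dendritic cell markers 6 were tested and 2 were higher and 1 lower. Cd74, the invariant chain, was higher by 0.89 ± 0.10 (limma, adjusted p = 9.06e-05), and the 12 had sums of 79.8 to 97.5 TPM at 10 h, against 58.9 to 62.6 TPM at 0 h. The 10 epithelial markers, relevant because Spint1 is best known there, summed to 2.19 to 4.29 TPM at 10 h and 6.60 to 7.31 TPM at 0 h. Epcam had a mean of 0.0306 TPM at 10 h, and 4 of the 10 were at 0 in all 3 samples at 10 h. Markers of mast cells, basophils and eosinophils were lower for 6 of 8 tested and higher for 2, those of lymphoid cells lower for 3 of 5, and those of red cells and platelets lower for 3 of 9. The part of these shifts in the rise of Tarm1 was not tested, and neither was their part in that of Spint1, while Epcam stayed under 0.1 TPM in its mean at every time.

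The genes most like the members over the 9 GMP samples were sought among 29 genes with a mean under 5 TPM at 0 h and of 20 TPM or more at 10 h, of which 22 were left after the members, predicted genes and receptor segments were set aside. Tarm1 and Spint1 themselves correlated at r = 0.977 (Pearson, log2(TPM + 1), n = 9), which restates how they were chosen, since all samples share the same 3 times. The 22 candidates were filtered on these same samples, so a high r is built in for them too. Closest to Tarm1 came Csf2rb2, a beta chain of the interleukin-3 receptor (r = 0.998), then the endocytic adaptor Dab2 (0.997), the kinase Nek6 (0.995), Lpl, lipoprotein lipase (0.994), Olfm1 (0.993) and the lysosomal amidase Naaa (0.992). Csf2rb2 had 4.64 ± 0.108 TPM at 0 h, 42.8 ± 0.960 TPM at 6 h and 43.6 ± 1.76 TPM at 10 h, and since it is a close copy of Csf2rb the split of reads between them is uncertain. Lpl, like Tarm1, was lower at 10 h than at 6 h in its mean, with 0.976 TPM at 0 h, 70.8 TPM at 6 h and 41.5 TPM at 10 h.

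Closest to Spint1 came Cyp51 (r = 0.997), the membrane protein gene Ms4a6d (0.997), Lss (0.996), Naaa (0.996), Sqle (0.994) and Msmo1 (0.994). Of these 6, Cyp51, Lss, Sqle and Msmo1 encode enzymes of sterol synthesis. How many of all the candidates do so was not counted, so no link of Spint1 to that path is read from it. Cyp51 had 2.62 ± 0.401 TPM at 0 h, 23.0 ± 1.34 TPM at 6 h and 30.8 ± 0.436 TPM at 10 h, and Lss 1.57 ± 0.445, 17.3 ± 1.49 and 26.0 ± 2.26 TPM at the same times. Like Spint1 they were higher at 10 h than at 6 h, as were 23 of the 29 genes. In CALM/AF10 cells Cyp51 had 7.86 TPM at 0 h, 7.65 TPM at 6 h and 9.76 TPM at 10 h, and Ms4a6d 21.2, 17.4 and 29.8 TPM at the same times. Naaa, which is close to both members in GMP, had 92.1, 91.8 and 88.4 TPM at these times. No difference of these genes from Spint1 was tested. The lines, which all but lack Spint1, held Ms4a6d at 92.3 and 54.8 TPM in MLL/AF9 lines 2 and 1 and 13.1 and 19.2 TPM in CALM/AF10 lines 2 and 1.

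**Figure D4:**
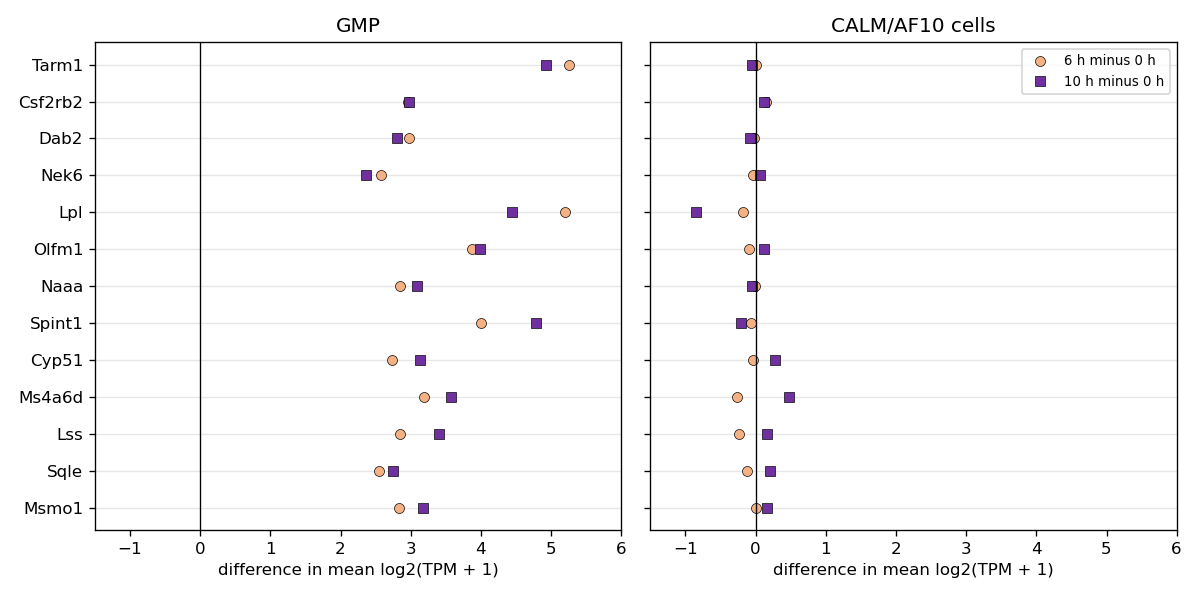
Difference in mean log2(TPM + 1) from 0 h (horizontal axis) at 6 h (circles) and 10 h (squares) for Tarm1, Spint1 and the genes closest to each over the GMP samples, in GMP (left) and CALM/AF10 cells (right). In GMP every gene lies above 2, which the choice itself brings about, while in CALM/AF10 cells they lie between -1 and 1, with Tarm1 at -0.05 and Spint1 at -0.21 at 10 h.

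Of the neighbouring genes on the chromosome 5 were tested in GMP, and 3 were called higher at both 6 h and 10 h, Gm35037, Zfyve19 and Vps18. Of all 14246 genes tested, 24.1% were called higher at 6 h and 23.7% at 10 h. On the Tarm1 side the lincRNA Gm35037, on the opposite strand 11480 bases from Tarm1, was at 0 in all 3 GMP samples at 0 h. It had 4.69, 5.77 and 5.97 TPM at 6 h and 7.37, 8.29 and 4.31 TPM at 10 h. Its log2 difference at 10 h was 2.90 ± 0.20, and 6.03 with a pseudocount of 0.1. Gm35037 entered the fit only through its later samples, so no p-value is given and its call is a description. It is not listed in the CALM/AF10 table. Gm44165, a transcript annotated inside an intron of Tarm1 on the same strand, was too low to be tested. It had 0.465, 0.580 and 0.457 TPM in GMP at 0 h, 1.08, 0.897 and 0.959 TPM at 6 h and 0.838, 0.798 and 0.820 TPM at 10 h. All later samples lay above those at 0 h, as did 27.5% of the genes tested at 6 h and 28.2% at 10 h. Reads of unspliced Tarm1 would fall on Gm44165. In untreated CALM/AF10 cells its mean was 3.72 TPM. Cacng6, 50833 bases away, was at 0 in all GMP samples. On the Spint1 side, Ppp1r14d, 7456 bases away, stayed under 0.4 TPM in its GMP means. Rhov, 19674 bases away, was too low to be tested. It had 0.0308, 0.0757 and 0.0882 TPM at 0 h, 0.464, 0.245 and 0.326 TPM at 6 h and 0.346, 0.115 and 0.203 TPM at 10 h. All later samples of Rhov lay above those at 0 h, with the same shares of all genes as above, but at levels near the floor. Zfyve19 was higher in GMP at 6 h by 0.68 ± 0.10 (limma, adjusted p = 0.000559) and at 10 h by 0.37 ± 0.10 (adjusted p = 0.0148, but 0.0573 after quantile normalization), and Vps18 by 0.33 ± 0.08 (adjusted p = 0.00712) and 0.35 ± 0.08 (adjusted p = 0.00458) at these times. Dnajc17 was not called in GMP, with 18.4 ± 1.20 TPM at 0 h and 21.4 ± 0.361 TPM at 10 h (limma, adjusted p = 0.0664).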

How the data were processed

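Labels put the 30 samples into 10 groups of 3. The authors deposited TPM per gene for the time course, in separate tables for GMP and CALM/AF10 cells, whose columns carry no replicate number, so samples are called a, b and c in column order. For the lines they deposited estimated counts and TPM per transcript, per the file headers, which were summed per gene with GENCODE M21; it held 98206 of 99567 transcripts, and 0.749 to 1.19% of reads were left out. The authors' deposited junction tables hold PSI in percent, the log2 ratio, q-values and the mean raw count of a group, which is rounded and taken as a score. The labels' protocols name the Ovation kit for libraries, and the submitters' processing notes name STAR and mm10. The quantifier and the use of strand are not given in the sources used here, so overlapping genes cannot be told apart.

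For the time course, log2(TPM + 1), with a pseudocount of 1, of genes at 1 TPM or more in at least 3 samples was fitted with limma 3.58.1 (trend) in R 4.3.3, with all 3 times of a cell type together. Lines were compared with edgeR 4.0.16 (quasi-likelihood, TMM) on rounded estimated counts, summed per line for the fusions, with DESeq2 1.42.0 as an alternative. P-values were adjusted by Benjamini-Hochberg over every gene in a fit and called under 0.05. Genes under 1 TPM in all 0 h samples entered a time-course fit only through later samples, so their calls are descriptions. Both fits were tested on simulated data. The members, the 13 gene lists and the tests were chosen with earlier results of these data known, so counts over lists are descriptions. Named were the members, the 6 genes most like each, the nearest annotated neighbours and, of each list, up to 4 genes called in GMP at 10 h with the largest changes and a mean of 5 TPM or more. St14, Hgf, Pira2, Lipg, Gm42429, Syk, Vav1, Inpp5d, Bcl10, Fcgr1, Clec4d, Clec4n and genes given as level checks fall outside that rule and were chosen after their values were seen. Pira1, Pira6, Pira11 and Lilrb4b were not analysed here. A further gene that the rule names is not reported here. The alternatives were the pseudocount, the filter, the scaling, the samples in the fit, the tool and leaving out each sample in turn.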

Additional observations from a re-analysis of the deposited data

Results flagged for a closer look

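At 10 h the Spint1 samples lay on opposite sides of those at 0 h in the 2 cell types. Every GMP sample at 10 h lay above every GMP sample at 0 h, with a log2(TPM + 1) difference of 4.79, and every CALM/AF10 sample at 10 h lay below every CALM/AF10 sample at 0 h, with a difference of -0.21 that was not called over all genes (limma, adjusted p = 0.0668). Of all genes tested 28.2% lay higher in this way in GMP and 16.4% lower in CALM/AF10 cells. The difference between the cell types was not tested, because the gene was chosen for its rise in GMP.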

How the results depend on the processing

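Of the alternatives run for the members and the counts of calls, 233 kept the direction and the side of the threshold, or a count within 1.5 times. With a pseudocount of 0.1 the GMP differences over 0 h were 5.67 (6 h) and 5.34 (10 h) for Tarm1 and 6.71 and 7.53 for Spint1, by construction of the scale for low genes. After quantile normalization those of Spint1 were 3.87 and 4.64, and Tarm1 at 10 h over 6 h was -0.41, against -0.27 after median centring; the cause was not tested. These 10 h over 6 h alternatives were added after the data were seen. The near-zero difference of Tarm1 in CALM/AF10 cells at 6 h ranged between -0.029 and 0.027 with 1 sample left out, and was -0.0022 without 6 h sample c. The 376 genes called in CALM/AF10 cells between 10 h and 6 h became 188 with no filter, 140 with only those groups fitted, and 64 to 263 with 1 sample left out. The 540 genes called between the fusions became 1282 with DESeq2, 1229 with no filter and 5246 with the 12 samples as replicates. Between MLL/AF9 lines 2 and 1, Tarm1 lost its call with DESeq2 size factors (-0.35), with DESeq2 (-0.35, adjusted p = 0.102) and with no filter (-0.45, adjusted p = 0.0577), and ranged over -0.48 to -0.32 with 1 sample left out. For single genes of the lists and neighbours 1242 alternatives kept the call and 82 lost it. Same-numbered samples of the lines did not visibly deviate together (correlations of -0.0191 to 0.0322). With 3 samples per group this check cannot exclude that the numbers pair them. With a replicate block Tarm1 was -2.70 between the fusions (12 samples, 4581 genes called), 0.74 between CALM/AF10 lines (5110 genes) and -0.42 between MLL/AF9 lines (9399 genes), and kept these calls. For the time course no paired analysis was possible because the columns carry no replicate number. Depth limits Spint1 in the lines, and time-course depth is unknown.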
